A study of Homo sapiens with 6 samples.

Results

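The transcripts described here are those of 9 genes that prepare replication origins, chosen by symbol from the 23228 gene names of the table: the 6 subunits of the origin recognition complex (ORC1 to ORC6), the helicase loaders CDC6 and CDT1, and geminin (GMNN), the inhibitor of CDT1. They were measured by polyA RNA sequencing in SaOS-2, an osteosarcoma cell line that the study describes as null for RB, which carried a Tet-inducible p21 vector in every library. Cells without doxycycline (p21 OFF, 3 libraries) were compared with cells given 1 μg/ml doxycycline for 24 h (p21 ON, 3 libraries), all grown in DMEM with 10% FBS, which asks how transcript levels respond to p21, an inhibitor of cyclin-dependent kinases, where RB is missing. Libraries of doxycycline-treated cells that lack the vector were not analysed here, so the drug and p21 cannot be told apart, and all libraries are of 1 engineered line. The methods call the replicates biological, but the labels do not say whether they were separate cultures; if they were not, the p-values measure only technical spread.

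An origin is licensed in G1, when ORC bound to DNA recruits CDC6 and CDT1 and these place the MCM helicase around the DNA in an inactive form. Origins fire in S phase, when kinases and further factors such as CDC45 and GINS turn the helicase on, and geminin, together with the destruction of CDT1, prevents a second licensing until the cell has divided. ORC1 and CDC6 are related ATPases, ORC6 is the smallest subunit and is the one most loosely held in the human complex, and many genes of this pathway are targets of E2F factors, which RB family proteins restrain.

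The libraries held 12795490 to 21975045 reads on genes. Replicate 1 of p21 OFF, the shallowest, stood apart across all genes, with a chi-square per gene of 8.495 and 9.26 against the other p21 OFF libraries, where every other pair within a group had 2.71 to 3.98. CDKN1A, which encodes p21 and counts reads of the vector and of the cells' own gene together, had 1187 to 1355 normalized counts in p21 OFF and 40470 to 46739 in p21 ON libraries. Of 9 osteoblast lineage markers, 6 had a mean of at least 10 normalized counts, with SP7 at 5568 ± 334 and ALPL at 36026 ± 1143 (SD, n = 3) in p21 OFF cells. BGLAP was at 0 in every library, and COL1A2 (2.10 and 3.67 in p21 OFF and p21 ON cells) and SPP1 (2.34 and 1.59) were near 0. IBSP stood at 129 ± 8.66 normalized counts in p21 OFF and 99.0 ± 3.20 in p21 ON cells (SD, n = 3 each) and fell (limma, adjusted p = 0.0264), and no other osteoblast marker was called. The summed level of the osteoblast markers was 71376 to 74084 normalized counts in p21 OFF and 72419 to 75639 in p21 ON libraries. Of 10 markers of epithelial, blood and endothelial cells, EPCAM, KRT5 and PECAM1 passed the filter; the summed levels were 328 to 398 in p21 OFF and 317 to 357 in p21 ON libraries for 4 epithelial markers, 6.65 to 12.6 and 4.87 to 16.3 for 4 blood markers, and 8.87 to 17.6 and 10.97 to 16.3 for the endothelial pair, with KRT19 at 0. RB1 reads were present (555 ± 66.8 normalized counts in p21 OFF and 654 ± 39.7 in p21 ON cells, SD, n = 3).

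All 9 genes passed the filter of a mean of at least 10 normalized counts. ORC6, ORC1, ORC3 and GMNN fell in p21 ON cells, and none of the 9 rose. The threshold was an adjusted p-value under 0.05 from limma with Benjamini-Hochberg adjustment over all 13255 genes tested, where 12.7% of genes were lower, 10.5% were higher and 23.2% were called in either direction. At an unadjusted p-value under 0.05, 6 of the 9 were lower (ORC2 and CDC6 in addition) and 0 were higher, and edgeR and DESeq2 on the recovered reads each called 4 lower and 0 higher. Without p21 OFF replicate 1 the count was also 4 lower and 0 higher, at -1.26 on the log2 scale for ORC6, -0.62 for ORC1, -0.48 for ORC3 and -0.29 for GMNN. The p21 ON libraries lay wholly below the p21 OFF libraries for 7 of the 9 genes and wholly above for 0, where 21.3% and 19.1% of all genes tested did so. The median log2 fold change of the 9 genes was -0.17, beside 0.0056 for all genes tested. In bulk RNA, fewer cells in the phase that expresses a gene and less of its RNA per cell cannot be told apart.

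**Figure D1:**
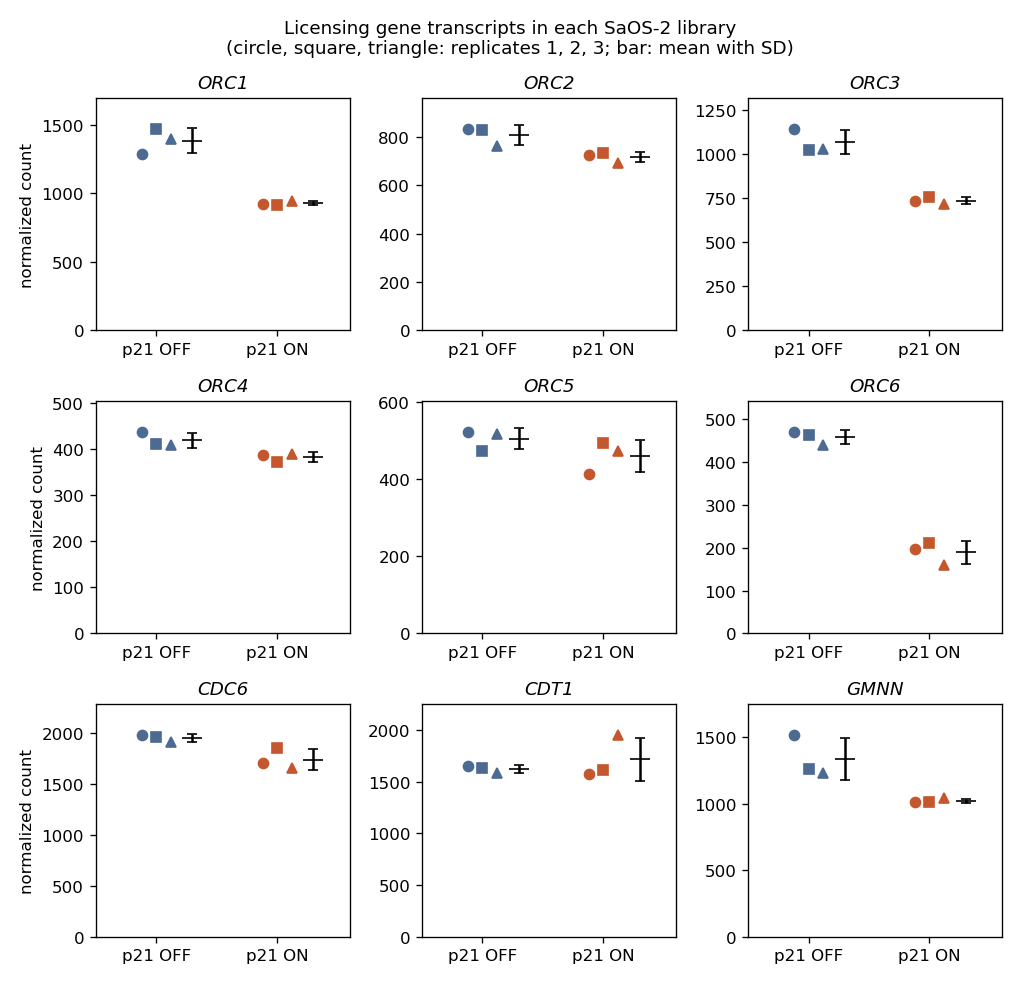
Normalized counts of the 9 genes in the 6 libraries, with an axis from 0 for each gene, 1 symbol per replicate and a bar for the mean with the SD of 3 libraries. ORC1, ORC3 and ORC6 show a clear step down from p21 OFF to p21 ON, GMNN steps down from a p21 OFF group in which replicate 1 is high, and the groups of ORC5 and CDT1 overlap.

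Promoters are shown because E2F factors act there and because the genes with such letters near their start did not all move alike. All 9 genes were matched by symbol to RefSeq promoter windows of GRCh38.p14, 11 windows in all, each of 250 bases before and 50 bases after a transcription start. The windows were searched on both strands for 4 runs of letters bound by E2F factors (TTTCCCGC, TTTCGCGC, TTTGCCGC and TTTGGCGC), which share their first and last letters and can overlap one another on opposite strands, and for TTTGAA, the letters of the CHR element. E2F letters were found in 1 window each of CDC6, CDT1, GMNN and ORC3, in 4 of 11 windows, against 3.31% of all 35116 windows and 4.77% of the windows of genes tested. TTTGAA was in 0 of the 11 windows, in 15.2% of all windows and in 10.6% of the windows of genes tested. The windows printed run from 250 bases before the start to base 20 after it, read 5′ to 3′ on the strand of the gene, with the E2F letters in capitals. CDC6 lies at chr17:40287629-40287898 on the plus strand with its match at bases 8 to 15 after the start. CDT1 lies at chr16:88803539-88803808 on the plus strand with its match read on the other strand, from base 35 before the start. GMNN lies at chr6:24775163-24775432 on the plus strand with its match from base 80 before the start, and its other window held none. ORC3 lies at chr6:87589885-87590154 on the plus strand with its match read on the other strand, from base 12 before the start.
CDC6: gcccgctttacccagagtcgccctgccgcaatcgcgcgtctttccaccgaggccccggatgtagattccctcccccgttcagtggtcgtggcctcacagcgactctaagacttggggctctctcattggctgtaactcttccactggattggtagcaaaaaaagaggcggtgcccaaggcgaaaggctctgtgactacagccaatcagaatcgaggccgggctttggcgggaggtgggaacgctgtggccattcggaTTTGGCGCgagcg
CDT1: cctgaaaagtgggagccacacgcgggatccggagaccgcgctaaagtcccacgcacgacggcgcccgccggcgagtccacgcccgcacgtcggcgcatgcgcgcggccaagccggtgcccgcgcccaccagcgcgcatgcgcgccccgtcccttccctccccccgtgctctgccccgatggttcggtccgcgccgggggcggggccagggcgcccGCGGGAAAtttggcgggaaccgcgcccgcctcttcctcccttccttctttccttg
GMNN: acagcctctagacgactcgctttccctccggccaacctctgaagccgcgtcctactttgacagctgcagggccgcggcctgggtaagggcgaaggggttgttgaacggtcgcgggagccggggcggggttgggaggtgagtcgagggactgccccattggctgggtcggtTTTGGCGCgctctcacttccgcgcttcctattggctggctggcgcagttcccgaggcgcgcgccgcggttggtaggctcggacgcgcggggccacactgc
ORC3: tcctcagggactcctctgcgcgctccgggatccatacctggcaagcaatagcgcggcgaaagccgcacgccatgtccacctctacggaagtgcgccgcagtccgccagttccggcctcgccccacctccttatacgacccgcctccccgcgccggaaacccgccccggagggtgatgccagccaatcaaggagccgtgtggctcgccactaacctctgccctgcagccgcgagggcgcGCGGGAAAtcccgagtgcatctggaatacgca

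Of these, ORC3 and GMNN fell while CDC6 and CDT1 were not called. ORC6 and ORC1, which fell most, held none of these letters in their windows, at chr16:46689409-46689678 on the plus strand and chr1:52404404-52404673 on the minus strand. They are printed for comparison. The search took exact letters only. Runs that differ from them in any base, for example in the ORC1, ORC6, CDC6 and CDT1 windows, were not counted and stay in lower case. The absence of a match is therefore not the absence of an E2F site.
ORC6: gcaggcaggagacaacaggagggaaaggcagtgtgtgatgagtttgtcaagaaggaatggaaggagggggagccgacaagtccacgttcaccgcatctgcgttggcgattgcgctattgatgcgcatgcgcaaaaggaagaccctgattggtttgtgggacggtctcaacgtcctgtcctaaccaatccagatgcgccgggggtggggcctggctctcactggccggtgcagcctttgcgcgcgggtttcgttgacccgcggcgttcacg
ORC1: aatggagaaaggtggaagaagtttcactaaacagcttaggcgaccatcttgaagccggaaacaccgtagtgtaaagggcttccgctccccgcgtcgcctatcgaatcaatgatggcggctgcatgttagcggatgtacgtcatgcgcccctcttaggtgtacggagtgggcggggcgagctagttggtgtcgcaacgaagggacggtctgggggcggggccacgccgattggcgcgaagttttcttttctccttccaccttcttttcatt

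ORC6, the subunit that fell most, lies on chromosome 16 from 46723555 to 46732306 on the plus strand (GRCh37, the build of hg19 to which the authors mapped, as are the gene positions that follow). It had 469.7, 462 and 438 normalized counts in p21 OFF replicates 1 to 3 and 196, 211 and 159.6 in p21 ON replicates 1 to 3. Every p21 OFF library was more than 2 times as high as every p21 ON library. The mean was 457 ± 16.3 in p21 OFF and 189 ± 26.3 in p21 ON cells (SD, n = 3 each), which is -1.28 on the log2 scale (95% confidence interval -1.49 to -1.07, standard error 0.10, adjusted p = 2.91e-08 from limma), or 2.43-fold lower. Between 168 and 593 reads stood behind each value, and 168 reads carry a counting error of 7.72%. Over 16 other settings, which include the omission of any 1 library, the log2 value stayed between -1.36 and -1.16.

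ORC1, the ATPase subunit that cells destroy after G1 and the one closest to CDC6, lies on chromosome 1 from 52838501 to 52870095 on the minus strand. Its p21 OFF libraries held 1287, 1474 and 1397 normalized counts and its p21 ON libraries 927, 917 and 948. The p21 ON libraries were close together and all well below the p21 OFF libraries, among which replicate 1 was lowest. The log2 fold change was -0.57 (95% confidence interval -0.71 to -0.43, standard error 0.07, adjusted p = 6.66e-06 from limma), and the mean fell by 32.8%.

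ORC3, which contributes to the body of the complex together with ORC2, lies on chromosome 6 from 88299785 to 88377171 on the plus strand. Its libraries held 1144, 1025 and 1031 normalized counts in p21 OFF and 732, 757 and 718 in p21 ON libraries, so that the groups were far apart. The log2 fold change was -0.53 (95% confidence interval -0.68 to -0.39, standard error 0.07, adjusted p = 2.30e-05 from limma), a fall of nearly the same size as that of ORC1.

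ORC2, ORC4 and ORC5 were not called. ORC2, on chromosome 2 from 201773700 to 201828403 on the minus strand, had 835, 829 and 761 normalized counts in p21 OFF and 724, 734 and 695 in p21 ON libraries. The groups of ORC2 did not overlap, but its log2 fold change of -0.17 (95% confidence interval -0.32 to -0.03) had an adjusted p of 0.0822 from limma. When a trend with transcript length was taken out of each library, ORC2 was called, at -0.20 (adjusted p = 0.0286 from limma). ORC4, an ATPase subunit on chromosome 2 from 148687965 to 148779173 on the minus strand, had 438, 411 and 409 normalized counts in p21 OFF and 388, 372 and 391 in p21 ON libraries. Every p21 ON library of ORC4 was lower than every p21 OFF library by a margin smaller than the range of its p21 OFF replicates, with a log2 fold change of -0.13 (95% confidence interval -0.29 to 0.03, adjusted p = 0.241 from limma). ORC5, also an ATPase subunit, on chromosome 7 from 103766788 to 103848495 on the minus strand, had 522, 473 and 517 in p21 OFF and 412, 493 and 473 in p21 ON libraries. The groups of ORC5 overlapped, and the log2 fold change was -0.14 (95% confidence interval -0.31 to 0.04, adjusted p = 0.258 from limma). The intervals leave room for falls to -0.32, -0.29 and -0.31 on the log2 scale in ORC2, ORC4 and ORC5. Exons of genes annotated on the opposite strand cover 4.39% of the exonic bases of ORC2 and, for ORC4, 4.83% (ACVR2A) and 1.76% (MBD5); the strand setting of the counting is not given in the sources used here.

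The makeup of the ORC transcripts was compared within each library, after division of each normalized count by the length of the canonical transcript in GENCODE. This ignores isoforms that the cells may use in place of the canonical one. ORC6 made up 16.9% ± 0.34 (SD, n = 3) of the summed per-length level of the 6 subunits in p21 OFF cells and 9.94% ± 1.22 (SD, n = 3) in p21 ON cells, with no overlap. The shares of ORC1 (26.6% ± 2.05 and 25.4% ± 1.03) and ORC3 (25.6% ± 1.28 and 25.1% ± 0.30) overlapped between the groups, while those of ORC2, ORC4 and ORC5 were higher in every p21 ON than in every p21 OFF library. ORC5 went from 15.7% ± 0.88 to 20.3% ± 1.52, ORC2 from 11.3% ± 0.41 to 14.2% ± 0.34 and ORC4 from 3.84% ± 0.10 to 4.99% ± 0.26. A share must rise when another falls, so these rises are relative only. With the union of all annotated exons as the length, the share of ORC6 was 9.36% ± 0.25 and 5.39% ± 0.70.

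**Figure D2:**
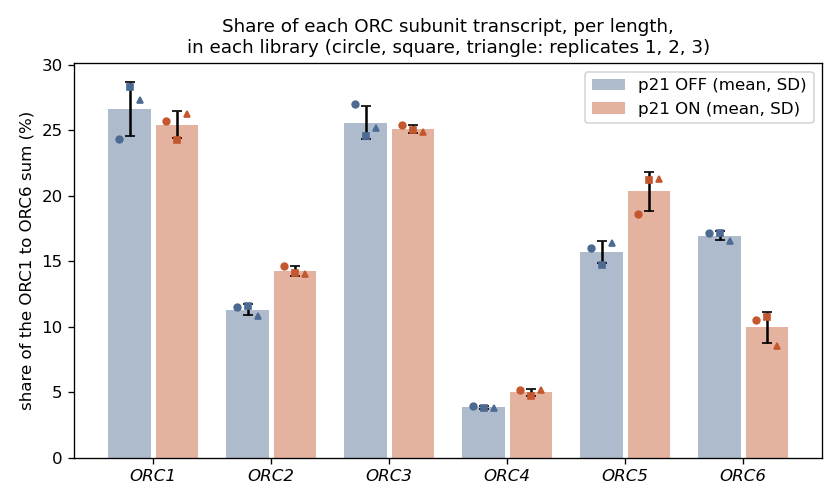
Share of each ORC subunit in the summed per-length level of ORC1 to ORC6, in percent, with bars for the mean of 3 libraries, error bars for the SD and 1 symbol per replicate. The ORC6 bars drop from 16.9% to 9.94%, those of ORC2, ORC4 and ORC5 are higher in p21 ON cells, and those of ORC1 and ORC3 differ little between the groups.

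On the same per-length scale the 9 genes were put in order, which depends on the length used. With the canonical transcript, in p21 OFF cells GMNN stood highest at 1060 ± 126 normalized counts per kb (SD, n = 3), followed by CDT1 at 609.8 ± 13.5. ORC1 at 444 ± 30.1, CDC6 at 427 ± 8.26 and ORC3 at 427 ± 26.9 came next, and their ranges overlapped from neighbour to neighbour. The ranges of ORC6 (283 ± 10.1) and ORC5 (262 ± 14.2) also overlapped, and ORC2 (189 ± 9.54) and ORC4 (64.1 ± 2.48) stood apart at the bottom. In p21 ON cells, with the same lengths, GMNN (809 ± 13.9) and CDT1 (645 ± 78.3) were the highest, CDC6 (381 ± 22.9) stood apart above ORC1 (298 ± 5.08) and ORC3 (295 ± 7.76), and ORC6 (117 ± 16.3) was below ORC5 (239 ± 22.0) and ORC2 (167 ± 4.73), with ORC4 (58.5 ± 1.56) lowest. With the union of all annotated exons, an alternative added after the values were seen, CDT1 was above GMNN, at 589 ± 13.1 and 541 ± 64.2 normalized counts per kb in p21 OFF cells (SD, n = 3), where their ranges overlapped, and at 623 ± 75.6 and 413 ± 7.10 in p21 ON cells. With that length ORC6 was below ORC5 and ORC2 already in p21 OFF cells, at 106 ± 3.78 against 135 ± 7.32 and 139 ± 7.02, so that its change of place held for the canonical length only, and ORC4 was lowest with either length.

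CDC6, which joins ORC on DNA to receive the helicase, lies on chromosome 17 from 38444131 to 38460909 on the plus strand. Normalized counts of CDC6 were 1984, 1958 and 1910.0 in p21 OFF and 1709, 1856 and 1653 in p21 ON libraries. All p21 ON libraries were lower, but p21 ON replicate 2 lay closer to the lowest p21 OFF library than the range of the p21 OFF libraries. The log2 fold change was -0.17 (95% confidence interval -0.30 to -0.04, adjusted p = 0.0617 from limma), which missed the threshold. CDC6 was called without p21 ON replicate 2 (-0.21, adjusted p = 0.0382 from limma), with a length trend taken out (-0.20, adjusted p = 0.0114) and under TMM scaling (-0.18, adjusted p = 0.0472), and its adjusted p ranged from 0.0114 to 0.21 over 16 other settings.

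CDT1, which brings the MCM helicase to ORC and CDC6, lies on chromosome 16 from 88870197 to 88875666 on the plus strand. Its normalized counts were 1655, 1633 and 1585 in p21 OFF and 1579.75, 1619 and 1959 in p21 ON libraries. A single library, p21 ON replicate 3, was high, and the other p21 ON libraries lay at or near the p21 OFF range. The log2 fold change was 0.08 (95% confidence interval -0.08 to 0.23, adjusted p = 0.495 from limma), and without p21 ON replicate 3 it was -0.022.

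GMNN, the inhibitor of CDT1, lies on chromosome 6 from 24775159 to 24786327 on the plus strand. Its libraries held 1521, 1265 and 1230.0 normalized counts in p21 OFF and 1010.5, 1014 and 1042 in p21 ON libraries. The p21 ON libraries were nearly alike and below every p21 OFF library, while p21 OFF replicate 1 stood well above the other p21 OFF libraries. The log2 fold change was -0.38 (95% confidence interval -0.54 to -0.22, standard error 0.08, limma adjusted p = 0.00177). It was -0.29 when p21 OFF replicate 1 was left out (adjusted p = 0.000756), and with a length trend taken out it was -0.25 (adjusted p = 0.00333), a value 1.5 times smaller; GMNN has the shortest canonical transcript of the 9, at 1263 bases.

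Ratios within a library do not depend on how libraries are scaled. Of 3 ratios computed, the log2 ratio of CDT1 to GMNN was 0.12, 0.37 and 0.37 without doxycycline (replicates 1 to 3) and 0.64, 0.68 and 0.91 with it. The CDT1 transcript thus gained on that of GMNN in every p21 ON library, by 0.46 on the log2 scale on average, or 1.37-fold. By itself CDT1 was not called, while GMNN fell. Protein levels were not measured in these libraries. The log2 ratio of ORC1 to ORC2 was 0.78 ± 0.13 in p21 OFF and 0.38 ± 0.07 in p21 ON cells (SD, n = 3 each), a difference of -0.40. The log2 ratio of ORC6 to ORC1, added after the values were seen, went from -1.60 ± 0.13 to -2.31 ± 0.23 (SD, n = 3 each), a difference of -0.71. In all 3 ratios the groups did not overlap, and the exact two-sided permutation test gave p = 0.1 (0.1 also after Benjamini-Hochberg adjustment), the smallest value that 3 libraries against 3 allow and one that cannot reach 0.05. The CDT1 to GMNN difference was 0.37 when p21 ON replicate 3 was omitted, 0.38 when p21 OFF replicate 1 was, and 0.35 with a length trend taken out.

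ORC1, ORC3 and ORC6 start close to a protein-coding gene on the other strand, a comparison chosen after the values were seen. The start of VPS35, a retromer subunit, lies 125 bases from that of ORC6, and the log2 fold change of VPS35 was -0.19 (limma, adjusted p = 0.0401) beside -1.28 for ORC6. PRPF38A, a splicing factor 179 bases from the start of ORC1, had -0.19 (adjusted p = 0.0396), beside -0.57 for ORC1. RARS2, the mitochondrial arginyl-tRNA synthetase gene 39 bases from the start of ORC3, had -0.12 (adjusted p = 0.236), beside -0.53 for ORC3, and its groups overlapped. In each pair the fall of the ORC gene was the larger one, but the difference within a pair was not tested. MBD5, whose start lies 593 bases inside ORC4, had 0.25 (adjusted p = 0.0653).

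The step that follows ORC, CDC6 and CDT1 is the loading of the MCM2-7 helicase. Of 6 MCM genes, 5 rose (83.3%, beside 10.5% of all genes tested) and 0 fell (beside 12.7%), with a median of 0.29. MCM7 was not called (log2 fold change -0.08). Its p21 ON values lay wholly below those of p21 OFF, as for 21.3% of all genes tested. edgeR and DESeq2 also called 5 MCM genes higher and 0 lower, and at an unadjusted p-value under 0.05 0 of them were lower. MCM6 rose from 1506 ± 31.0 to 2090 ± 162 normalized counts (SD, n = 3 each), or by 0.47 on the log2 scale (limma, adjusted p = 5.57e-05), MCM3 rose by 0.39 (adjusted p = 0.00013) and MCM5 by 0.31 (adjusted p = 0.00102). The count of 5 was the same with each library left out and under every other setting run. Of 12 genes that act when origins fire, 11 fell (91.7%, beside 12.7% of all genes tested) and 0 rose (beside 10.5%). CDC7, the kinase subunit partnered by DBF4, was not called (0.12, adjusted p = 0.151 from limma). The median of the 12 genes was -0.64, and 0 were higher at an unadjusted p-value under 0.05 and by edgeR and DESeq2. CDC45, part of the active helicase, fell by 1.08 on the log2 scale (adjusted p = 1.39e-08 from limma), TICRR, which links kinase activity to firing, by 1.17 (adjusted p = 2.33e-08) and MCM10, needed for helicase activation, by 1.26 (adjusted p = 6.38e-08). ORC6, at -1.28, was close to these 3 firing factors in size and lay below all 12, which ran from -1.26 to 0.12. CDC6, CDT1 and all the other origin recognition and licensing genes except ORC6 lay between the medians of both lists. Over the 16 other settings the count of firing genes that were lower was between 9 and 11 (11 by edgeR, 10 by DESeq2, 9 with scaling by library size), and it was 9 or 10 whenever 1 library was omitted. The difference between the lists was not tested.

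**Figure D3:**
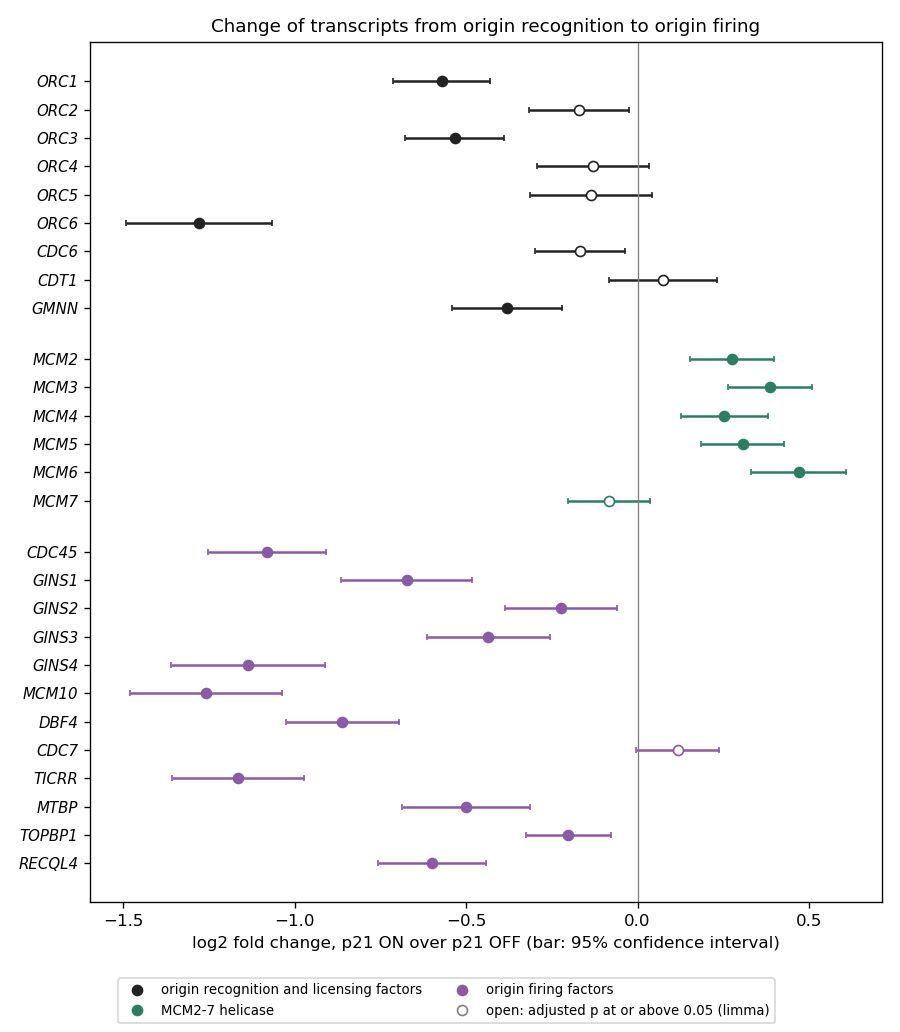
Log2 fold change of each gene, p21 ON over p21 OFF, with its 95% confidence interval from limma, for the 9 origin recognition and licensing factors (black), the 6 MCM2-7 genes (green) and 12 firing factors (purple), filled where the adjusted p-value is under 0.05. The MCM genes lie to the right of 0 except MCM7, the firing factors to the left except CDC7, and the 9 genes run from -1.28 (ORC6) to 0.08 (CDT1).

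Proteins that bind, modify or destroy licensing factors formed a list of 22 genes, of which 21 passed the filter. Of these, 4 rose (19.05%) and 5 fell (23.8%), with a median log2 fold change of -0.07. Among all genes tested, 10.5% were higher and 12.7% lower. By edgeR 4 of the list were higher and 5 lower, and by DESeq2 3 were higher and 4 lower. GMNC, a relative of geminin, had a mean under 10 and was not tested. None of the 5 chromatin and MCM partners (LRWD1, KAT7, OBI1, PHIP and MCMBP) was called by limma, and none had an unadjusted p-value under 0.05. Their log2 fold changes ran from -0.08 to 0.05. LRWD1, which binds ORC on chromatin, had 1081 ± 4.003 normalized counts in p21 OFF and 1069 ± 65.9 in p21 ON cells (SD, n = 3 each).

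Among 10 genes listed around the destruction of licensing factors, not all of which encode destruction factors themselves, 3 fell and 1 rose. The shares were 30% and 10%, beside 12.7% lower and 10.5% higher of all genes tested. FZR1, an activator of the anaphase-promoting complex that targets CDC6 and geminin, fell by 0.42 on the log2 scale (adjusted p = 0.000144 from limma), and CCNF, the cyclin F that targets CDC6, fell by 0.42 (adjusted p = 0.000165). KMT5A, a histone H4 methyltransferase, fell by 0.20 (adjusted p = 0.041), and is named after its value was seen. HUWE1, a ubiquitin ligase of CDC6, rose by 0.32 (adjusted p = 0.0158), although its groups overlapped. Of a ligase that destroys CDT1 in S phase, no listed subunit was called by limma. DTL had -0.15 (adjusted p = 0.0794), DDB1 -0.12 (adjusted p = 0.15), CUL4A -0.07 (adjusted p = 0.424) and CUL4B 0.04 (adjusted p = 0.673). PCNA and SKP2, from the same list but not subunits of that ligase, had 0.15 (adjusted p = 0.145) and 0.12 (adjusted p = 0.192 from limma). The p21 ON libraries lay wholly below the p21 OFF libraries for DTL, DDB1 and CUL4A, as for 21.3% of all genes tested. They lay wholly above for SKP2, as for 19.1% of all genes tested. For CUL4B and PCNA the groups overlapped.

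Of 5 cyclin and kinase genes that act on licensing, 2 rose, 2 fell and CDK2 was not called (-0.09, adjusted p = 0.282 from limma). The shares were 40% in each direction, beside 10.5% higher and 12.7% lower of all genes tested. CCNA2, the cyclin of S and G2 phase, had 1505 ± 82.8 normalized counts in p21 OFF and 543 ± 44.9 in p21 ON cells (SD, n = 3 each), which is -1.47 on the log2 scale (limma, adjusted p = 8.38e-11), and CDK1 fell by 1.38 (adjusted p = 2.51e-10). CCNE2 rose by 0.81 (adjusted p = 9.15e-07) and CCNE1, named after its value was seen, by 0.73 (adjusted p = 1.35e-05); both encode cyclin E, which acts at the end of G1. These genes mark positions in the cell cycle and moved in the same libraries as ORC6, ORC1, ORC3 and GMNN, and the part of cell cycle position in the changes of those 4 genes was not tested. MCIDAS, a relative of geminin known from cells with many cilia, rose by 0.46 (adjusted p = 0.0214) at a low level of 69.9 ± 5.83 to 96.2 ± 4.75 normalized counts (SD, n = 3 each).

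**Figure D4:**
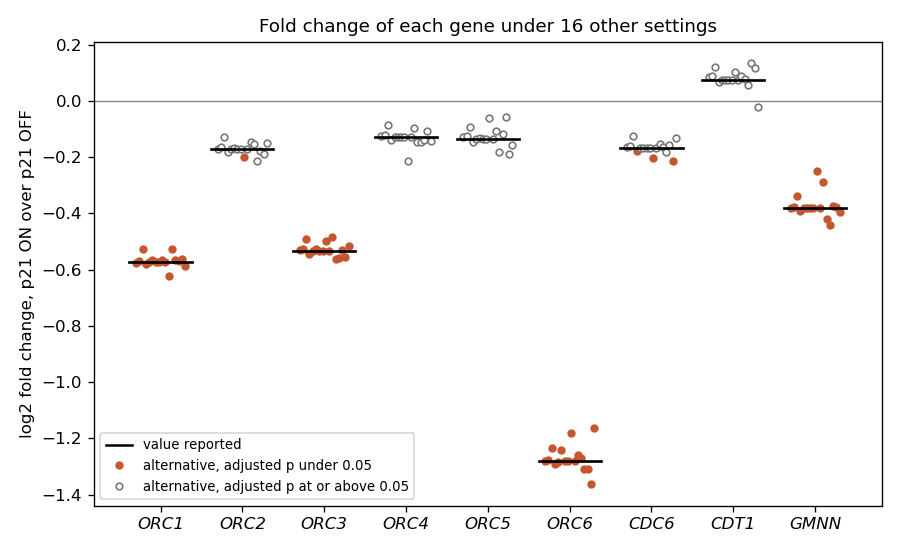
Log2 fold change of each of the 9 genes as reported (black line) and under 16 other settings of scaling, pseudocount, filter, test and libraries (points), filled where the adjusted p-value is under 0.05. ORC1, ORC3, ORC6 and GMNN are filled throughout, ORC2 is filled once and CDC6 in 3 settings, ORC4 and ORC5 in none, and CDT1 has 1 point below 0.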

How the data were processed

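The authors sequenced stranded polyA libraries of SaOS-2 cells, used STAR for alignment to hg19 and HTSeq for reads per gene, and scaled the result by size factors from DESeq2; the deposited signal is this normalized count per gene and library. Versions are not given in the sources used here. All values were whole multiples of 1 step per library (within 0.01 reads, 100% of values), which returned the reads.

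Groups were compared with limma 3.58.1 (eBayes with a trend, R 4.3.3) on log2(normalized count + 1), a scale that understates the change of low genes, for genes with a mean of at least 10. Alternatives were edgeR 4.0.16 and DESeq2 1.42.0 on recovered reads (the count tests), scaling by library size or TMM, pseudocounts of 0.1 and 10, no filter, a mean of at least 50, a length trend taken out (lowess), a replicate block and each library left out. The limma, edgeR and DESeq2 fits were tested on simulated counts with known changes. Counting errors cover sampling of reads only. Gene positions and canonical transcripts were taken from GENCODE release 44 lifted to GRCh37. The genes, lists and tests were chosen with earlier results of these data known. All 9 genes are named, and in other lists the 3 with the lowest adjusted p-values among those called; OBI1, KMT5A, GMNC, MCIDAS and TICRR were found under older symbols. Some genes of the marker lists are not reported here.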

Additional observations from a re-analysis of the deposited data

How the results depend on the processing

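The falls of ORC1, ORC3, ORC6 and GMNN held their direction and their side of the threshold under all 16 other settings, with log2 fold changes from -0.62 to -0.53, -0.56 to -0.48, -1.36 to -1.16 and -0.44 to -0.25. ORC4 and ORC5 were called under none of them. A length trend taken out called ORC2 (-0.20) and CDC6 (-0.20) and moved the partner and regulator genes called lower from 5 to 9, TMM scaling called CDC6 (-0.18), and the direction of CDT1 reversed (-0.022) without p21 ON replicate 3; the cause was not tested. When single libraries were omitted, the genes called numbered 695 to 1486 higher and 887 to 1660 lower, against 1393 and 1681, with the fewest without p21 ON replicate 1 (695 and 887) and p21 ON replicate 3 (739 and 1077). Over the same fits the partner and regulator genes called higher numbered 2 to 5, and the log2 fold change ranged from -0.21 to -0.13 for CDC6 and from -0.022 to 0.13 for CDT1. Scaling by library size alone gave 2034 genes higher and 1194 lower and a median over all genes of 0.05, where 4 of the 9 genes were still lower and 5 MCM genes higher. The CDT1 to GMNN, ORC1 to ORC2 and ORC6 to ORC1 ratios moved by less than 1 SD under the settings run for them.

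Same-numbered p21 OFF and p21 ON libraries did not deviate together (correlations across genes of -0.06, -0.02 and -0.05) in these data, and no label ties them; a shared culture or day was not tested. With the replicate block, 1407 genes were higher and 1513 lower, and 4 of the 9 genes were lower. Depth limits ORC6 most, with 168 reads in its lowest library.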
